A study of Mus musculus with 6 samples.

Results

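Axon guidance ligands and receptors were examined in whole brain of mice that lack the neural cell adhesion molecule NCAM. The members were the probe sets whose single gene symbol belongs to the ephrins, the Eph receptors, the semaphorins of classes 3 to 7, the plexins, the neuropilins, the netrins with their receptors Dcc and Unc5, or the Robo and Slit families. They numbered 57 probe sets for 44 genes, of 12422 probe sets in the series. The letters of the rule matched 58 probe sets, because they also match Unc50, which is not a netrin receptor and was set aside. Its signal was 1181 ± 38.1 (SD, n = 3) in knockout and 1209 ± 37.8 in wild-type brains.

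RNA came from total brain of 6 male mice on the C57BL/6J background. A constitutive Ncam knockout was carried by 3 of them, and the other 3 were wild type on that background. Replicates 1 and 2 of each group were aged 2 months, and replicate 3 was aged 3 months. Each animal was measured on its own one-colour Affymetrix array, so every group had n = 3. The labels describe separate individuals, and they name no cell-type-specific driver, since the deletion is constitutive.

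Guidance cues steer growing axons by attracting or repelling the growth cone, some as secreted proteins and others held in the membrane of neighbouring cells. Ephrins are membrane-bound ligands of the Eph receptor tyrosine kinases, and both partners can signal into their own cell. Most secreted semaphorins of class 3 bind neuropilins, which signal together with plexins, whereas most semaphorins of other classes bind plexins directly. Netrins act through Dcc and the Unc5 receptors, and Slits through Robo receptors. In the adult brain several of these proteins are kept in neurons, oligodendrocytes and vessels, where they are known for roles in synapses, myelination and vascular patterning.

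The deposited values are signal intensities in arbitrary units. Differences give the knockout mean less the wild-type mean of log2(signal + 16), where adding 16 damps noise and understates folds of dim probe sets. A probe set was tested only if its mean log2 value over all 6 arrays reached the 40th percentile of all probe sets, 6.46, which corresponds to a signal of 72.2. Of the members, 35 probe sets for 29 genes were tested and 22 were too dim. Just inside this limit lay a Sema4b probe set at 6.49 and Efnb1 at 6.85, and just outside it Sema5a at 6.45 and another Sema4b probe set at 6.42. Signals of different probe sets were not read as relative amounts of transcript, because each probe set binds with its own efficiency. Brighter and dimmer refer to signal alone, and summed signals of marker genes are weighted towards the brightest probe sets.

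The arrays were alike in their overall values, with correlations between 0.967 and 0.985 for any pair over the 7453 probe sets tested. The brightest Ncam1 probe set, the check of the labels, was 4.78-fold lower in knockout brains (271 ± 59.6 against 1337 ± 116, adjusted p = 0.00076 in limma). Another Ncam1 probe set read 101, 71.2 and 86.7 in knockout against 155, 141 and 145 in wild-type replicates 1, 2 and 3. Its groups did not overlap, and its log2 difference was -0.68 ± 0.15 (SE). Its adjusted p of 0.416 in limma was nevertheless above 0.05, so a drop in the deleted gene itself did not pass there. The remaining Ncam1 probe set was dim, at 3.53 to 8.49, and was not tested. In 2 knockout brains markers of tissue parts stood apart. The summed signal of 12 cerebellar genes was 4768.5 in knockout replicate 2 and 12465 to 14011 on the other arrays. Gabra6, which marks cerebellar granule cells, read 11.8 there and at least 1254 elsewhere. In the same animal the summed signal of 4 striatal genes was the highest, at 8401 against 6824 to 7059 on the other arrays. The summed signal of 7 pituitary genes was 15816 in knockout replicate 1 and 1007 to 1480.4 on the other arrays. The 3' to 5' signal ratio of the Gapdh control, a sign of RNA quality, did not overlap between the groups (0.811 to 0.826 for knockout, 0.768 to 0.798 for wild type). The part of these differences in the values below was not tested.

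**Figure D1:**
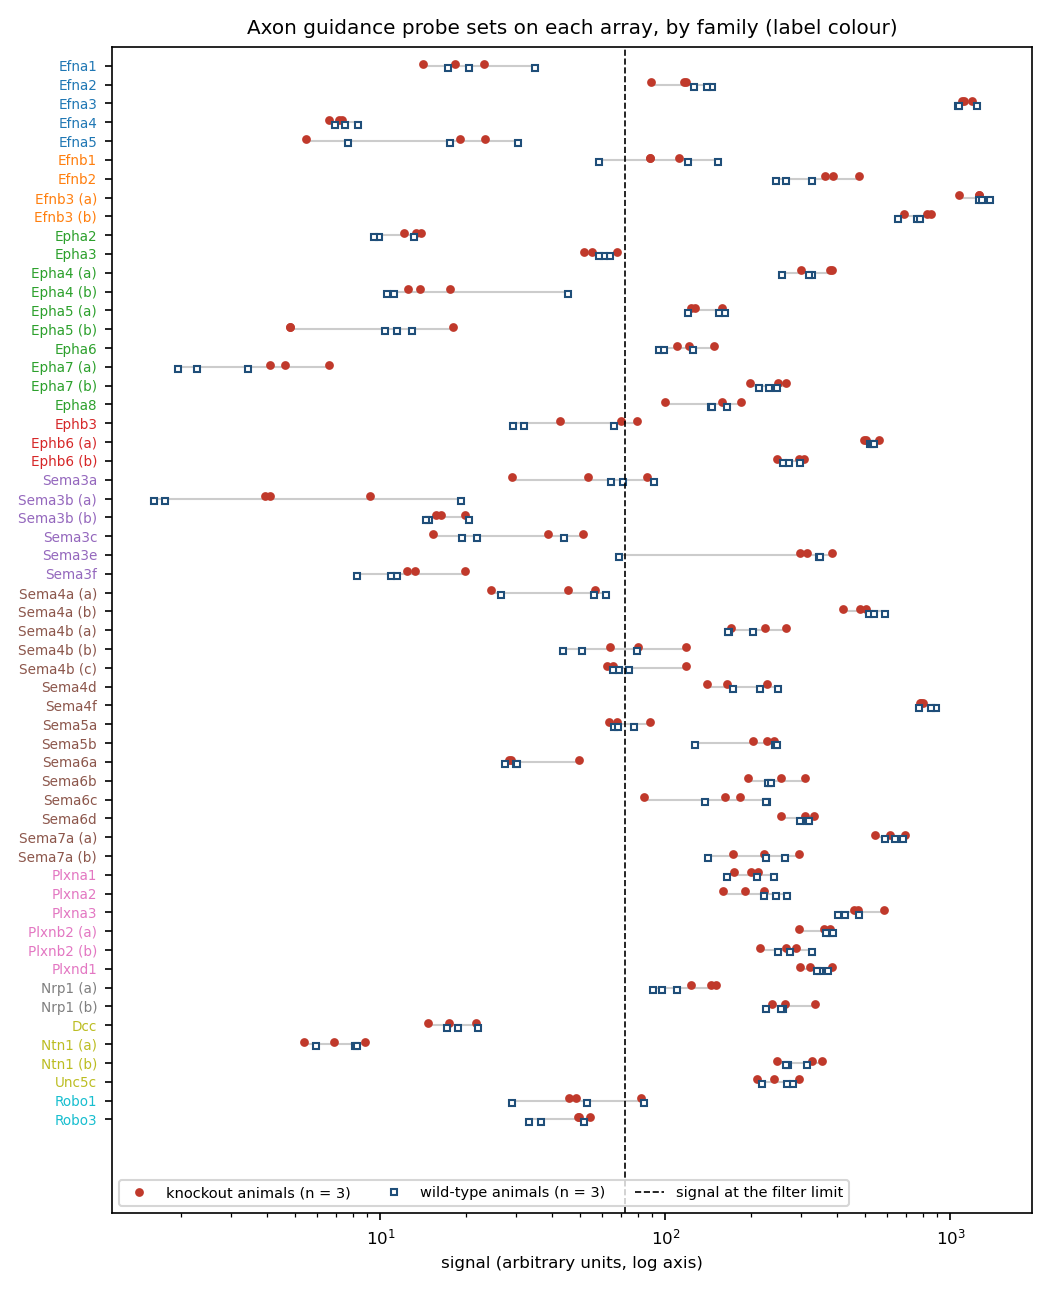
Signal of each of the 57 guidance probe sets on each of the 6 arrays (log axis, arbitrary units), with families by label colour, several probe sets of a gene lettered, and the dashed line at the signal of 72.2 that corresponds to the filter limit. Positions along the axis are not comparable between probe sets. The 2 Robo probe sets lie at or below 84.4 on every array, and the plexin probe sets lie at 159.7 or above.

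None of the guidance ligands or receptors was called as different. In limma with Benjamini-Hochberg adjustment over all 7453 probe sets, 0 of the 35 tested members had an adjusted p under 0.05, and over all probe sets 0.0268% were called. The lowest adjusted p of a member was 0.494, for Efnb2. At an unadjusted p under 0.05, 3 of 35 members were found (8.57%), against 6.94% of all tested probe sets. They were Efnb2 and Nrp1 with higher means in knockout brains (5.71% of members, against 3.26% of all tested probe sets) and Plxna2 with a lower one (2.86% against 3.68%). Knockout and wild-type signals were fully apart, without overlap, for 5 of 35 members (14.3%), against 12.9% of all tested probe sets. Of these, 2 were higher in knockout brains (5.71% against 6.08%) and 3 were lower (8.57% against 6.8%). Both shares of members lay near the background. Leaving out an array makes separation of the groups easier: without knockout replicate 2, knockout replicate 3 or wild-type replicate 3, the groups did not overlap for 10, 11 and 11 members, against 27.9%, 25.7% and 21.1% of all tested probe sets. Without knockout replicate 3, 5 members had an unadjusted p under 0.05, against 8.20% of all tested probe sets.

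The members were divided evenly in direction. Higher means in knockout brains were found for 17 tested probe sets and lower means for 18, with a median difference of -0.02 on the log2 scale, against 0.0017 over all tested probe sets. Ligands gave 10 higher and 9 lower means (median 0.01), and receptors 7 higher and 9 lower (median -0.03). The median size of the difference, with its sign removed, was 0.13 for the members and 0.10 for all tested probe sets, and the median standard error was 0.14 for the members and 0.12 for all. For 33 of the 35 members the 95% interval of the difference (not adjusted for the number of probe sets) lay between -1 and 1, and for 20 of them between -0.5 and 0.5. The exceptions to the wider limits were Sema3e and Sema6c.

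**Figure D2:**
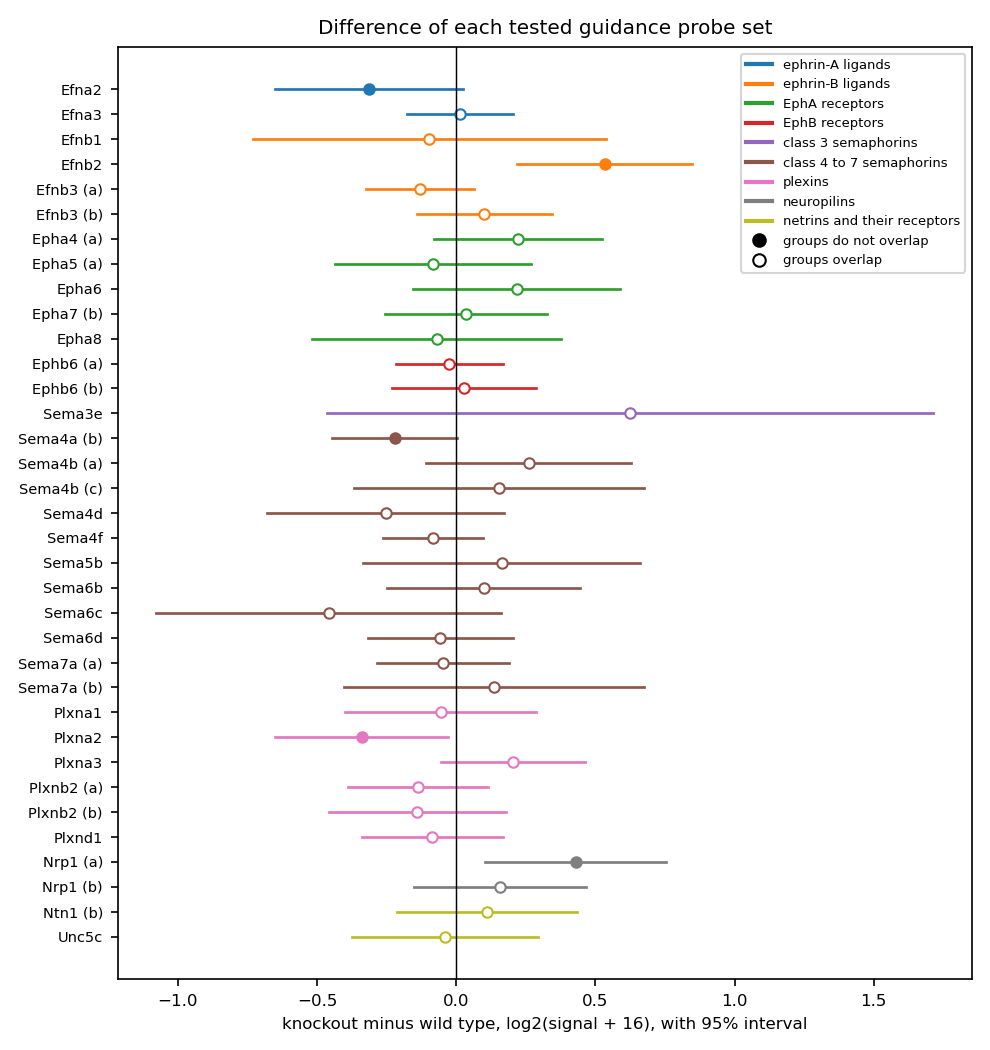
Knockout minus wild-type difference of the 35 tested probe sets on the log2(signal + 16) scale (points) with unadjusted 95% intervals from limma (lines), coloured by family, n = 3 animals a group. Filled points mark the 5 probe sets whose groups do not overlap, of which Efnb2 has the largest difference at 0.53; the wide interval of Sema3e runs from -0.46 to 1.71.

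Among the ligands of the Eph receptors, Efnb2 had the lowest p of all members. It encodes ephrin-B2, a transmembrane ligand of EphB receptors and of EphA4 that is also a marker of arterial endothelium. Its signal was 363, 479 and 388 in knockout replicates 1, 2 and 3, and 325, 265 and 245 in wild-type replicates 1, 2 and 3. Every knockout animal lay above every wild-type animal, with the nearest pair at 363 and 325. The group means were 410.1 ± 61.2 and 278 ± 42.1 (SD, n = 3), a log2 difference of 0.53 ± 0.14 (SE) with a 95% interval of 0.22 to 0.85. With an adjusted p of 0.494 in limma it did not pass, and 58 other probe sets had a lower p. Over all 19 alternative settings the log2 difference stayed between 0.42 and 0.65 and the adjusted p between 0.327 and 0.894.

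The other ephrin-B ligands differed less. Efnb3, which encodes ephrin-B3, a midline barrier for corticospinal axons, was read by 2 bright probe sets that went opposite ways. The brighter one read 1262, 1259.7 and 1069.7 in knockout against 1257, 1378 and 1291 in wild-type replicates 1, 2 and 3 (log2 -0.13 ± 0.09, adjusted p = 0.788 in limma). The other read 852, 825 and 688 against 761, 784 and 654 (0.10 ± 0.11, adjusted p = 0.853). On both probe sets the groups overlapped and knockout replicate 3 was the lowest knockout animal. Without it the brighter one gave -0.05 and the other 0.19, and the other gave 0.02 without wild-type replicate 3, 0.04 without knockout replicate 1 and 0.07 without knockout replicate 2. Efnb1 lay close to the filter limit, at 88.1, 112 and 88.5 in knockout against 120, 58.2 and 153 in wild-type brains, and its wild-type animals spanned a wider range than the knockout animals (-0.10 ± 0.28).

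Of the 5 ephrin-A ligands, which are anchored to the membrane by a lipid, 2 were bright enough to be tested. Efna2 read 116, 88.9 and 118 in knockout against 126, 145 and 139 in wild-type replicates 1, 2 and 3. All knockout animals lay below all wild-type animals, with the lowest value in knockout replicate 2, the brain with low cerebellar signal. The log2 difference was -0.31 ± 0.15 (adjusted p = 0.741 in limma). It was -0.20 without knockout replicate 2 and -0.38 without knockout replicate 3. Efna3 was bright and level, at 1194, 1112 and 1096 in knockout against 1062, 1072 and 1242 in wild-type brains (0.01 ± 0.08), with a 95% interval of -0.18 to 0.20. Efna1, Efna4 and Efna5 read between 5.48 and 34.9 on all arrays and were not tested.

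EphA receptors were represented by 7 genes, of which 5 had a tested probe set. Epha4, a receptor that binds ephrins of both classes and is abundant in the adult forebrain, read 379, 384 and 300.1 in knockout against 327, 319.9 and 257 in wild-type replicates 1, 2 and 3. In each group replicate 3, the 3-month-old animal, was the lowest, and the groups overlapped. Its log2 difference was 0.22 ± 0.13 (95% interval -0.08 to 0.52, adjusted p = 0.763 in limma), and without wild-type replicate 3 it was 0.12. Without knockout replicate 3 it was 0.33, and the groups did not overlap (as for 25.7% of all tested probe sets). In 2-month-old animals alone it was 0.23, also without overlap (as for 36.6%). With age as a covariate its adjusted p was 0.526 in limma. A second Epha4 probe set was dim, at 10.6 to 17.5 on every array but wild-type replicate 1, where it read 45.7. Epha6 read 121, 149 and 109 against 94.9, 99.0 and 125 (0.22 ± 0.16), again with overlap. Without knockout replicate 2 its value was 0.11. Without wild-type replicate 3 it was 0.32, and the groups did not overlap (as for 21.1% of all tested probe sets). Epha5, Epha7 and Epha8 had log2 differences of -0.08, 0.03 and -0.07. Epha8 was lowest in knockout replicate 2, at 99.9, and between 145 and 185 on the other arrays. Epha2 and Epha3 read at most 67.6 and were not tested.

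The EphB receptors were read by 3 probe sets, for Ephb6 and Ephb3. Ephb6, an Eph receptor without kinase activity, gave 505, 562 and 496 in knockout against 522, 529 and 538 in wild-type brains by its brighter probe set. This was the member with the least scatter within groups (SD 0.07 on the log2 scale), and its difference of -0.02 ± 0.09 had a 95% interval of -0.22 to 0.17. The second Ephb6 probe set, of a less specific kind, gave 0.03 ± 0.11. Ephb3 read 29.1 to 79.3 and was not tested.

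**Figure D3:**
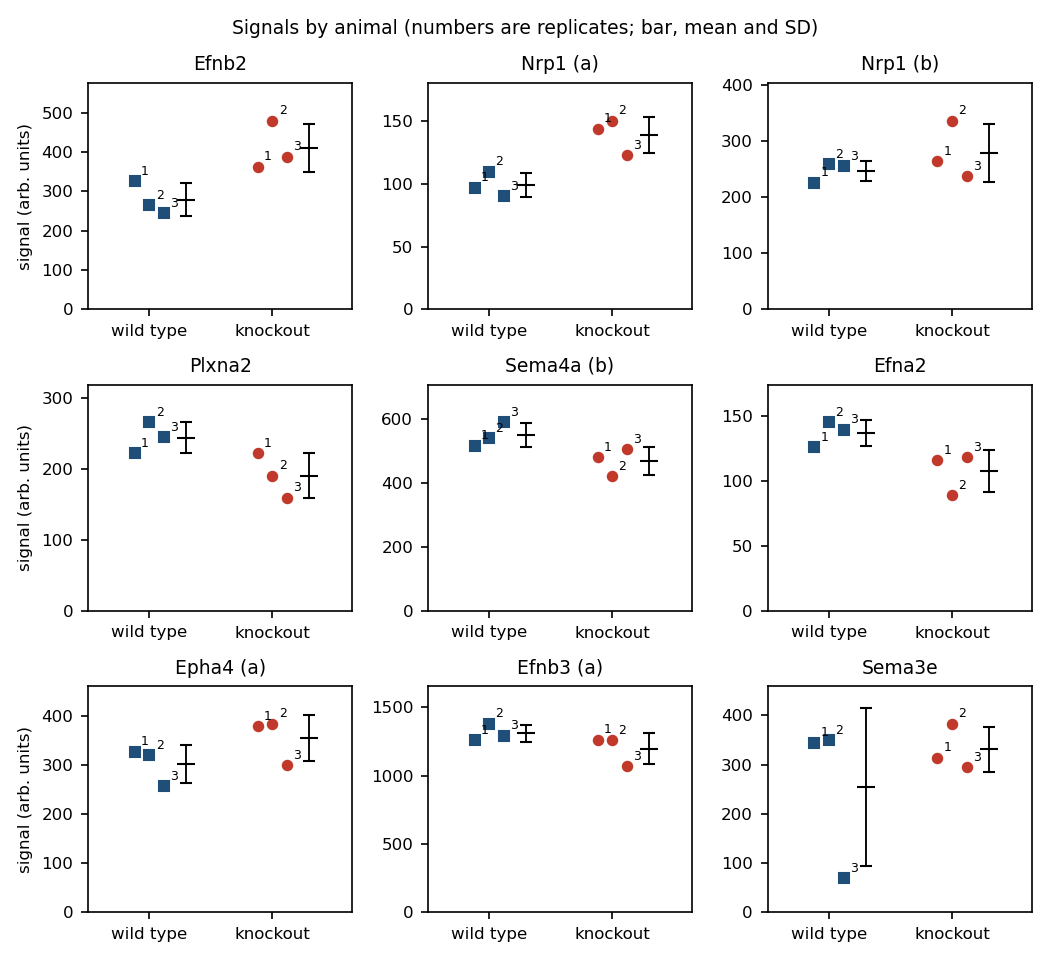
Signal of each animal (arbitrary units, axes from 0) for 9 probe sets, with wild-type animals as blue squares, knockout animals as red circles, replicate numbers beside the points and the mean with its SD (n = 3) at the side; letters mark several probe sets of a gene. The groups are apart for Efnb2, one of the 2 Nrp1 probe sets, Plxna2, Sema4a and Efna2, narrowly for Plxna2, and wild-type replicate 3 stands alone for Sema3e at 68.8.

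Secreted class 3 semaphorins were mostly dim, with 1 of 6 probe sets tested. That one read Sema3e, a cue whose receptor is plexin-D1, and it showed the largest difference of all members and also the largest scatter. Its signal was 314, 383 and 295 in knockout replicates 1, 2 and 3, 344 and 349 in wild-type replicates 1 and 2, and 68.8 in wild-type replicate 3. A single wild-type animal was low, and the other 5 arrays lay together. The log2 difference was 0.63 ± 0.48 (95% interval -0.46 to 1.71, adjusted p = 0.815 in limma), and without wild-type replicate 3 it was -0.07. It was 0.97 without wild-type replicate 1 and 0.98 without wild-type replicate 2. Wild-type replicate 3 lay more than 1 on the log2 scale below all 5 other arrays for 9 of the 7453 tested probe sets, and Sema3e was the 1 member among them. That animal was 3 months old, as was knockout replicate 3, which read 295.

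Plxnd1, the plexin that binds Sema3e, read 297, 383 and 321 in knockout against 370.4, 349 and 341 in wild-type brains. The groups overlapped, with a log2 difference of -0.09 ± 0.11 and a 95% interval of -0.34 to 0.17, and wild-type replicate 3 did not stand apart. The remaining class 3 probe sets, for Sema3a, Sema3b, Sema3c and Sema3f, read at most 91.4.

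Nrp1 encodes neuropilin-1, the co-receptor of class 3 semaphorins and of vascular endothelial growth factor, found on axons and on endothelium. By the dimmer of its 2 probe sets it read 144, 150.3 and 123 in knockout against 97.0, 109.7 and 90.5 in wild-type replicates 1, 2 and 3. All knockout animals lay above all wild-type animals. The means were 139 ± 14.5 and 99.1 ± 9.76, a log2 difference of 0.43 ± 0.14 (95% interval 0.10 to 0.75, adjusted p = 0.645 in limma), so it did not pass. The brighter Nrp1 probe set read 264, 336 and 237 against 226, 258 and 255, with overlap between the groups. Its difference was in the same direction and smaller, 0.16 ± 0.14 (adjusted p = 0.834 in limma), and was 0.02 without knockout replicate 2 and 0.26 without knockout replicate 3.

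Efnb2 and Nrp1 are both expressed by endothelium as well as by neurons, so genes of vessels and meninges were set beside them. Of 18 listed genes 15 were tested, of which 5 had higher and 10 lower means (median log2 difference -0.07). The groups did not overlap for 2 of the 15, both lower in knockout brains (13.3%, against 12.9% of all tested probe sets). None of the 15 read 0 on any array. Their summed signal was 9760.4 to 10790 in knockout against 10853 to 12970.3 in wild-type brains, lower in every knockout animal. The lowest sum, 9760.4, was that of knockout replicate 2. Of the markers that define endothelium, the tight junction gene Cldn5 read 391, 698 and 466 in knockout against 617, 559 and 422 in wild-type brains, highest in knockout replicate 2. The receptor Flt1 (209 to 230.4 against 209.9 to 247) and the adhesion genes Pecam1 (89.5 to 103 against 73.4 to 102) and Cdh5 (64.2 to 90.7 against 60.4 to 95.1) were not highest in that animal. All 4 overlapped between the groups. Whole brain was measured, so more cells of a type and more RNA per cell cannot be told apart. The part of the vessels in the Efnb2 and Nrp1 values was not tested.

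The plexins had lower means in knockout brains for 5 of 6 probe sets, with a median log2 difference of -0.11, and 0 were called. The median was negative under all 19 alternative settings (-0.14 to -0.03), quantile normalisation and median centring included. Without knockout replicate 2 it was -0.03, and without wild-type replicate 3 it was -0.07. Against the wild-type mean, the median over these probe sets was -0.27 in that animal and -0.04 in each of the other knockout animals. The wild-type animals gave -0.05, -0.02 and 0.07.

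Plxna2, a receptor for class 6 semaphorins and a partner of neuropilins, had the lowest p of this family. It read 222.2, 191 and 159.7 in knockout against 222.3, 266 and 245 in wild-type replicates 1, 2 and 3. Knockout replicate 1 and wild-type replicate 1 were nearly equal, so the gap between the groups was far smaller than the spread between replicates. The log2 difference was -0.34 ± 0.14 (95% interval -0.65 to -0.03, adjusted p = 0.719 in limma). Without knockout replicate 3 it was -0.23, and without knockout replicate 1 it was -0.45.

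Plxna3 was the plexin with a higher mean, at 474, 460.3 and 584 in knockout against 404, 425 and 478 in wild-type brains, with overlap (0.20 ± 0.12). Without knockout replicate 3 its difference was 0.10. Without wild-type replicate 3 it was 0.27, and the groups did not overlap (as for 21.1% of all tested probe sets). Both probe sets of Plxnb2, a plexin of cerebellar granule cells and their progenitors, gave -0.14. By the brighter one Plxnb2 read 359.6, 293 and 377 against 377, 388 and 367, lowest in knockout replicate 2. Without that animal its difference was -0.03, and by the other probe set -0.03, which was -0.04 without wild-type replicate 3. Plxna1 gave -0.06 ± 0.15.

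Semaphorins of classes 4 to 7, which are held in the membrane, made up the largest family, with 15 probe sets for 11 genes. Of these 11 were tested, 5 with higher and 6 with lower means, and 0 were called. Their median difference was -0.05, and it changed sign without knockout replicate 2, where it was 0.04, without the filter on dim probe sets (0.03) and with a filter at the 60th percentile (0.03).

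Sema4a had the lowest p among them and is known for acting on neurons and on immune cells. It read 480.1, 421 and 506 in knockout against 517, 539 and 589.9 in wild-type replicates 1, 2 and 3. All knockout animals lay below all wild-type animals, with 506 and 517 as the nearest values. The log2 difference was -0.22 ± 0.10 (95% interval -0.45 to 0.0032, adjusted p = 0.720 in limma). It was -0.15 without knockout replicate 2 and -0.28 without knockout replicate 3. A second Sema4a probe set was dim, at 24.3 to 61.9 with overlap between the groups, and was not tested. With the gene as the mean of its probe sets, the difference was -0.18 and the groups overlapped.

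Sema6c, which encodes a transmembrane semaphorin of the plexin-A group, read 161, 84.0 and 182 in knockout against 228, 138 and 226 in wild-type brains. The groups overlapped, and knockout replicate 2 was the lowest. Its difference of -0.46 ± 0.27 had an adjusted p of 0.763 in limma and shrank to -0.16 without that animal. It was -0.65 without knockout replicate 3 and -0.68 without wild-type replicate 2. In the latter case the groups did not overlap, as for 23.7% of all tested probe sets. The probe set is of a kind that holds fewer probes.

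Sema4b was read by 3 probe sets. By the brightest it gave 224, 169.8 and 264 in knockout against 167, 166 and 202 in wild-type brains (0.26 ± 0.16), with overlap, and the difference was 0.12 without knockout replicate 3 and 0.42 without knockout replicate 2. By a less specific one, close to the filter limit, the difference was 0.15 ± 0.23, which rested on knockout replicate 1, at 118 against 62.2 to 74.6 on the other 5 arrays, and was -0.10 without it. The third was dim, at 43.7 to 118, and was not tested.

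Sema4d, a semaphorin of oligodendrocytes that collapses growth cones, read 139, 228 and 164 in knockout against 215, 248 and 173 in wild-type brains. The values overlapped (-0.25 ± 0.19, adjusted p = 0.815 in limma), and the difference was -0.11 without knockout replicate 1, -0.14 without wild-type replicate 2, -0.38 without wild-type replicate 3 and -0.43 without knockout replicate 2. In the same samples 8 of 10 tested genes of oligodendrocytes and myelin had lower means in knockout brains, 7 of them without overlap (against 6.8% of all tested probe sets lower without overlap), and 0 were called. Their summed signal was 16006 to 16929 in knockout against 17994 to 18874 in wild-type brains, and none read 0. Of 8 tested astrocyte genes 6 had lower means, 3 of them without overlap (against 6.8% of all tested probe sets). The other 2 had higher means, 1 without overlap (against 6.08%). In all, 50% of the astrocyte genes did not overlap, against 12.9% of all tested probe sets, and 0 were called. Of 4 tested striatal genes 1 was lower and 3 were higher, all with overlap. The part of oligodendrocytes in the Sema4d value was not tested.

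The other membrane semaphorins overlapped between the groups. Sema4f, a semaphorin of neurons and glia, read 783, 799.8 and 788 in knockout against 888, 857 and 773 in wild-type brains (-0.08 ± 0.08). Its difference was -0.04 without wild-type replicate 1 and -0.14 without wild-type replicate 3, where the groups no longer overlapped. Sema5b read 203, 228 and 239 against 242, 247 and 127, with wild-type replicate 3 as the low value once more. Its difference was 0.16 ± 0.22, with a 95% interval of -0.33 to 0.66. Sema6b and Sema6d gave 0.10 ± 0.15 and -0.06 ± 0.11. Sema7a, anchored by a lipid and known to promote axon outgrowth through integrins, gave -0.05 ± 0.10 and 0.13 ± 0.24 by its 2 probe sets. It was the 1 member whose gene lies within 10 Mb of Ncam1 in the assembly GRCm38.p6. Sema5a and Sema6a were too dim to be tested.

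**Figure D4:**
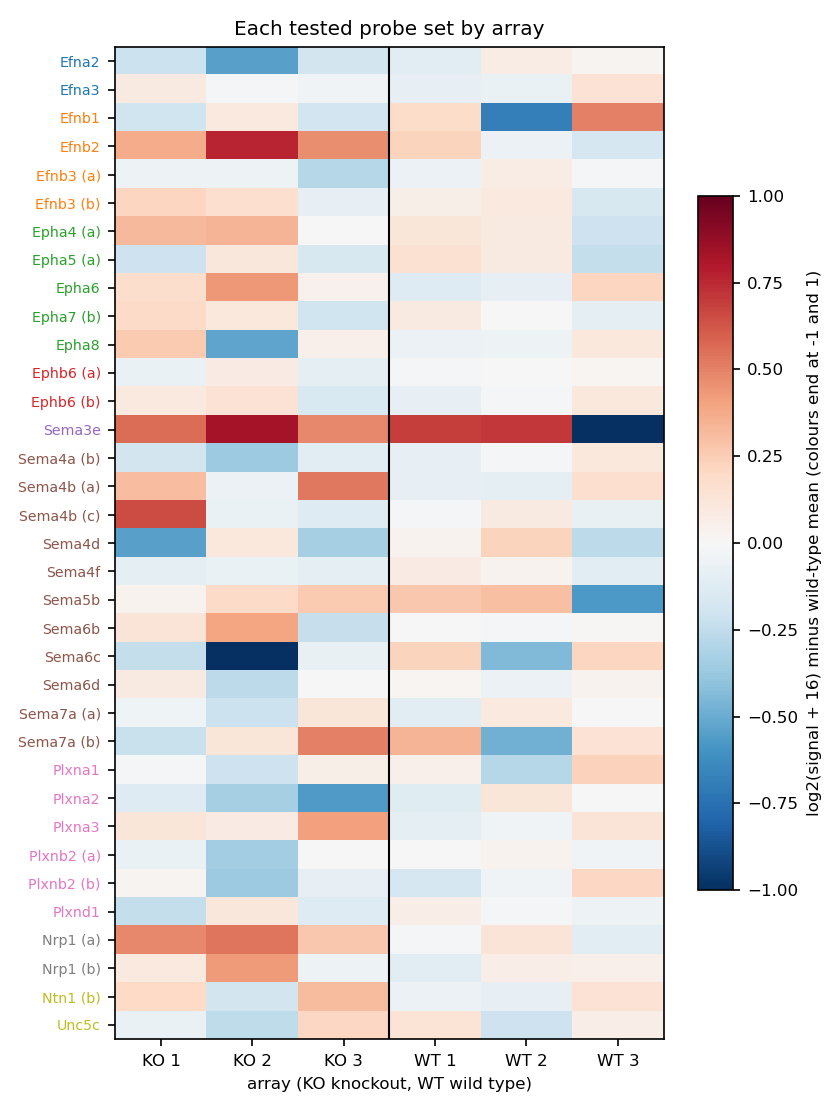
Deviation of each of the 35 tested probe sets from its wild-type mean on each array, on the log2(signal + 16) scale, with colours ending at -1 and 1, families by label colour and several probe sets of a gene lettered. Knockout replicate 2 holds the deep blue cell of Sema6c and wild-type replicate 3 that of Sema3e. Efnb2, Sema3e and 1 Nrp1 probe set are red in all 3 knockout columns, and others, such as Plxna3 and Epha6, are paler there. Sema3e is also red in wild-type replicates 1 and 2.

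Netrin-1, encoded by Ntn1, attracts commissural axons and is also made by adult oligodendrocytes. By its bright probe set it read 326, 246 and 354 in knockout against 269, 265 and 313 in wild-type replicates 1, 2 and 3. The groups overlapped, with knockout replicate 2 the lowest, and the difference was 0.11 ± 0.14 (95% interval -0.21 to 0.43, adjusted p = 0.885 in limma). Without knockout replicate 2 it was 0.26, and without knockout replicate 3 it was 0.0082. A second Ntn1 probe set read 5.40 to 8.83. Of the netrin receptors, Unc5c, which mediates repulsion, read 241, 209.8 and 295 against 281, 218 and 267 (-0.04 ± 0.15), lowest in knockout replicate 2. Dcc, the receptor for attraction, read 14.7 to 21.9 on all arrays and was not tested.

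Robo1, a receptor of the Slit repellents, and Robo3, of the same family, were also below the limit. Robo1 read 28.9 to 84.4 and Robo3 33.3 to 54.3, with overlapping groups for both. No probe set was matched to a Slit or to Nrp2, and these were not analysed here.

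Dim members made up 22 of the 57 probe sets, and for 15 genes no probe set was tested. In 17 of the 22 every array lay below a signal of 72.2. The groups did not overlap for 2 of them, Epha7 (4.09 to 6.59 in knockout against 1.94 to 3.42 in wild-type brains) and Sema3f (12.4 to 19.8 against 8.27 to 11.4), where 10.8% of all dim probe sets gave no overlap. A brighter Epha7 probe set read 265, 248 and 198 against 245, 230.2 and 213, with overlap.

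Where a gene had 2 tested probe sets, they had the same sign for 3 genes (Nrp1, Plxnb2 and Sema4b) and opposite signs for 3 (Efnb3, Ephb6 and Sema7a).

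Single animals shaped many of these values. Knockout replicate 2, with low cerebellar signal, was the lowest of the 6 arrays for 10 of 35 members and the highest for 10, where it was the lowest for 19.9% and the highest for 19.1% of all tested probe sets. Its low members were Epha8, Efna2, Unc5c, both Plxnb2 probe sets, Sema6c, Sema7a, Sema4a, Sema6d and Ntn1. Among its high members were Efnb2, both Nrp1 probe sets, Epha4, Epha6, Sema3e, Sema6b and Plxnd1. The median deviation of the members from the wild-type mean was 0.04, 0.08 and -0.05 for the 3 knockout animals. For the wild-type animals it ran from -0.01 to 0.02, so the groups overlapped. Scatter within groups was a median SD of 0.19 on the log2 scale for the members and 0.14 for all tested probe sets.

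**Figure D5:**
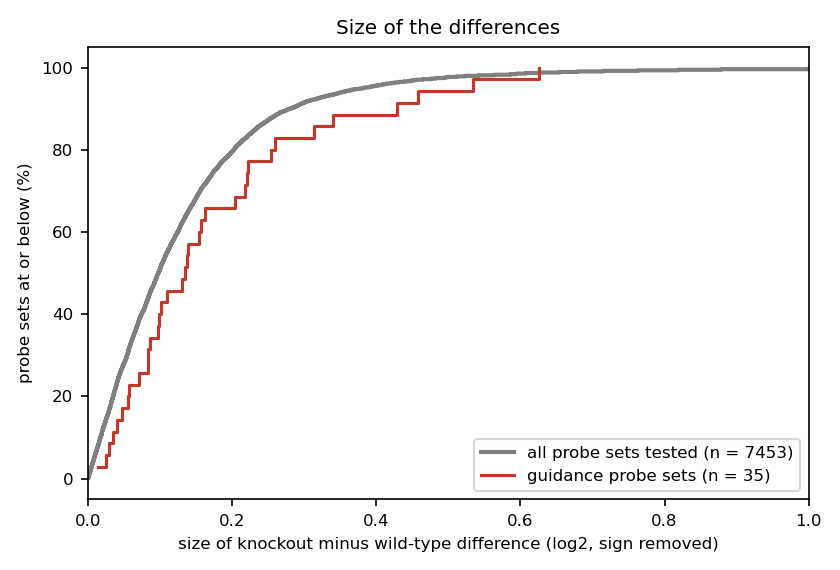
Share of probe sets (percent) whose knockout minus wild-type difference, with its sign removed, is at or below the value on the axis (log2 scale), for the 35 tested guidance probe sets (red) and all 7453 tested probe sets (grey). The red line runs to the right of the grey one over most of the range, with medians of 0.13 and 0.10, and the 2 members beyond 0.5 are Efnb2 and Sema3e.

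Differences over 0.5 on the log2 scale were found for 2 of 35 members (5.71%), Efnb2 and Sema3e, and for 2.29% of all tested probe sets. One of these 2 values, that of Sema3e, rested on the single low wild-type array described above.

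Genes that act downstream of these receptors or beside them were taken from a list of 61, of which 38 were on the array and 32 were tested by their brightest probe set. The list holds GTPases, kinases, exchange factors and adaptors that move the cytoskeleton of the growth cone. In limma with adjustment over all probe sets 0 of the 32 were called. At an unadjusted p under 0.05 there were 1 higher and 1 lower gene of the 32. Of all tested probe sets 3.26% were higher and 3.68% lower at that limit. Means were higher in knockout brains for 9 genes and lower for 23, with a median log2 difference of -0.02. The groups did not overlap for 4 of the 32 (12.5%), against 12.9% of all tested probe sets.

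Kalrn, an exchange factor that acts on Rac at dendritic spines, had the lowest p of this list. It read 2036, 2136 and 1690.7 in knockout against 1690.02, 1613 and 1464 in wild-type replicates 1, 2 and 3. The groups did not overlap, but by less than 1 unit between knockout replicate 3 and wild-type replicate 1 (log2 0.29 ± 0.10, adjusted p = 0.645 in limma). The next genes with higher means were Pak3 (0.27 ± 0.17), a kinase activated by Rac, and Dpysl2 (0.24 ± 0.14), the collapsin response mediator protein CRMP2 of the semaphorin pathway, both with overlap.

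Rac1, the GTPase that drives protrusion of the growth cone, read 5728, 6067 and 6282 in knockout against 6959.8, 6496 and 6436 in wild-type brains. All knockout animals lay lower, and the difference was -0.14 ± 0.06 (adjusted p = 0.719 in limma). Ablim1, an actin-binding protein of the netrin pathway, gave -0.21 ± 0.11, and Limk1, the kinase that inactivates cofilin, -0.12 ± 0.07, both without overlap. A second Limk1 probe set was higher in all knockout animals, at 0.16 ± 0.10, so the 2 Limk1 probe sets went opposite ways.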

How the data were processed

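From each brain 10 ug of total RNA went, after labelling, onto a one-colour Affymetrix array, per the labels. The authors deposited linear signal intensities, produced with GCOS 1.4 per the submitters' processing notes, with settings not given in the sources used here. Trimmed to the middle 96% of values, each array averaged 300.2, so the values appear scaled to 1 target, which would hide a change in total RNA.

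Setting aside 66 control entries left 12422 probe sets, of which 10833 had 1 gene symbol in the platform annotation. An Entrez identifier tied all 57 members to RefSeq genes of GRCm38.p6, and 0 symbols changed. After transformation as log2(signal + 16), the 7453 probe sets with a mean at or above the 40th percentile were tested with limma 3.58.1 under R 4.3.3 (lmFit, then eBayes, whose prior variance followed intensity; two-sided; no covariates). Benjamini-Hochberg adjustment covered all of them, with a threshold of 0.05. Data for 7453 probe sets were simulated with 200 changed ones and normal noise that was independent between probe sets. There 40.4% of changes of 0.5, 84.0% of changes of 1 and 97.7% of changes of 2 on the log2 scale were recovered. Of the simulated calls 5.7% were false. In the real data only 2 probe sets were called, and the median SD within groups was larger for the members (0.19) than for all tested probe sets (0.14). These rates therefore do not give the power for the members. The number of arrays limits the precision.

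The members, the signalling list and the marker lists were chosen with earlier results of these data known. Values in every sample are given for up to 8 members in each direction with the lowest p, for the lowest p of each family, for Epha4 and Efnb3, and for further members described, which were added after their values were seen, as were the marker genes Gabra6, Cldn5, Flt1, Pecam1 and Cdh5. Of the signalling list, 3 genes in each direction are named. The alternative settings blocked on replicate number, adjusted for age, kept only the animals aged 2 months, left out each array, and changed the scaling, pseudocount, filter, variance trend, array weights or the unit tested (genes as means of their probe sets). Figures were drawn with matplotlib 3.10.9.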

Additional observations from a re-analysis of the deposited data

How the results depend on the processing

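Under all 19 alternative settings 0 guidance probe sets and 0 genes of the signalling list were called, and the lowest adjusted p of any member was 0.327 in limma. Of the 22 tested probe sets of the genes named by the rule, 15 kept the sign of their difference under every setting that gave a value. The count of called probe sets over the whole table, 2 in the main setting, was 1 with quantile normalisation, with median centring, without a filter, without an intensity trend and without knockout replicates 1 and 2 (added after seeing the data, where the spread of the wild-type animals stands in for that of the lone knockout animal), 4 with array weights, 3 in 2-month-old animals alone, 0 with genes as means of their probe sets, and 1 to 2 with 1 array left out. With gene means the Ncam1 difference was -1.005 and did not pass (adjusted p = 0.143, and 7.71e-05 to 0.143 over all alternatives). The gene mean averages the bright Ncam1 probe set with 2 others.

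The number of members without overlap between the groups, 5 in the main setting, was 18 in 2-month-old animals alone, 19 without knockout replicates 1 and 2, 3 of 26 with the filter at the 60th percentile, and 5 to 11 with 1 array left out, where all tested probe sets gave 36.6%, 60.9% and 13.7% in the first 3. Members at an unadjusted p under 0.05 numbered 3 of 35 in the main setting, 6 with age as a covariate (17.1%, against 9.02% of all tested probe sets), 5 with median centring (14.3% against 6.17%), 5 without knockout replicates 1 and 2 (14.3% against 11.3%), and 2 to 5 with 1 array left out (4.71% to 9.57% of all). The replicate number as a block gave 7 of 35, against 8.51% of all tested probe sets, with 0 called. The samples were not treated as pairs, because the correlations of same-numbered deviations from the group means were 0.01, 0.15 and 0.20 for replicates 1, 2 and 3, not all over 0.1. Both replicates 3 share an age of 3 months, and 2 of 3 knockout samples correlated best with their own number. With 3 animals a group, even the Efnb2 difference of 0.53 on the log2 scale was not called (adjusted p = 0.494 in limma). Smaller differences could not be told from 0 for most members, and dim probe sets were not tested.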
